A study of Mus musculus with 44 samples.

Results

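A set of 8 cytokine and receptor genes was followed in CH12.LX cells, a line of mouse B lymphoma cells that LPS can turn towards antibody secretion. They are Il4 and Il10, which encode the cytokines interleukin 4 and interleukin 10, the receptor chain genes Il4ra, Il10ra, Il2ra, Il2rg and Il21r, and Stat6, the transcription factor gene downstream of the interleukin 4 receptor. Every probe set of the Affymetrix Mouse430_2 array that the platform annotation assigns to exactly 1 of these symbols was taken, which gave 13 of 45037 probe sets for 7 of the 8 genes. Il4, Il10 and Il21r had 1 probe set each, Il2ra and Stat6 had 2 each, and Il4ra and Il10ra had 3 each. Il2rg is named by 0 probe sets in the annotation used and is not analysed here. The list was chosen by gene function with earlier results of these data known, and Il4 had been selected on its lower signal with TCDD against vehicle, so its TCDD values are given as a description without a test.

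The 44 arrays fall into 11 groups of 4. Cells plated at 100000 per ml were harvested untreated at 0 h, or were activated with lipopolysaccharide (LPS, from Salmonella typhosa), a bacterial outer membrane molecule that triggers B cell division and differentiation. LPS cells received dimethyl sulfoxide (DMSO, 0.01%) as vehicle or TCDD (2,3,7,8-tetrachlorodibenzo-p-dioxin, given at 10 nM), which binds and activates the aryl hydrocarbon receptor (AhR), and were harvested at 8, 12, 24, 36 and 48 h. TCDD and vehicle groups therefore share LPS and time, whereas vehicle and untreated groups differ in LPS, DMSO and time in culture together. The 4 replicates of a group were handled on 4 separate days, so a replicate number stands for a day, and all came from 1 cell line. All levels below are log2(signal + 16) after quantile normalisation, on which the lowest possible value is 4, and all changes are differences on that scale. Each ± is a standard error of the limma fit over 4 arrays per group. Adjusted p-values are Benjamini-Hochberg values over all 25236 probe sets tested, with 0.05 as the threshold for a call.

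Interleukin 4 acts through a receptor of the interleukin 4 receptor alpha chain (Il4ra) and the common gamma chain (Il2rg), and its signal runs through Janus kinases to STAT6. In B cells it is known for growth, for class switching and for raising MHC class II. The common gamma chain also serves the receptors for interleukin 2, whose alpha chain is Il2ra, and for interleukin 21, whose own chain is Il21r. Interleukin 10 is made by several lymphocyte types, limits inflammatory responses, and signals through Il10ra and Il10rb to STAT3.

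The stretches just upstream of 3 start sites are shown because Il4 and Il21r were the genes with lower signal in every TCDD array than in the vehicle array of the same day, and because Il4ra held the AhR core motif. The sequences are those of RefSeq on GRCm38.p6, in which 6 of the 8 genes had a window from 250 bases before to 50 bases after a start site. Il10 and Il10ra had none, and Il4 had 2 start sites. Each line gives the 250 bases before the start, 5′ to 3′ on the strand of the gene. Capitals mark a match to GCGTG, the core of the AhR binding motif, or to TTCNNNNGAA, the spacing that STAT6 is known for, both searched on both strands. They are Il4 at chr11:53618666-53618915 on the minus strand, Il4ra at chr7:125552021-125552270 on the plus strand and Il21r at chr7:125603179-125603428 on the plus strand.
Il4: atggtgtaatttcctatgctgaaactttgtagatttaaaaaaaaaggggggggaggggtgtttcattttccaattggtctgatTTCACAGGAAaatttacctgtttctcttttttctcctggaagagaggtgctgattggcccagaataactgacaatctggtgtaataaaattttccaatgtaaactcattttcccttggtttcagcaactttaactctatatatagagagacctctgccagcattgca
Il4ra: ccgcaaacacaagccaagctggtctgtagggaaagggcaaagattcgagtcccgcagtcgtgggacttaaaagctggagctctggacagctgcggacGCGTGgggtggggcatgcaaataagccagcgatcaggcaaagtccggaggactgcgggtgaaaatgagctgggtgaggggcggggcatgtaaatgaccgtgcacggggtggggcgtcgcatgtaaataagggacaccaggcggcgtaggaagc
Il21r: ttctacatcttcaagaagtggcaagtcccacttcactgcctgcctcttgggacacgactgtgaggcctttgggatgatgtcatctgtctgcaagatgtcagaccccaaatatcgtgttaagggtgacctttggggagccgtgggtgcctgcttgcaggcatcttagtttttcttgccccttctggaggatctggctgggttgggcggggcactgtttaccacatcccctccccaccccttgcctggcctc
Il4ra held GCGTG 153 bases before its start and again 37 bases after it, and Il2rg held 1 copy 41 bases before its start. GCGTG was not in the windows of Il4, Il21r, Il2ra or Stat6, and 32.4% of 32851 windows of the same length hold it. TTCNNNNGAA was found 167 bases before the Il4 start shown, and 6.95% of all windows hold it. At the other Il4 start the shorter spacing TTCNNNGAA began 4 bases before the start, and 8.3% of windows hold that one. These matches describe the letters of the windows and were not measured as binding.

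The labels were first checked with Cyp1a1, an AhR-induced monooxygenase, whose signal was higher with TCDD at every time, by 4.50 to 6.01 ± 0.19, with no overlap between groups. The B cell markers measured (5 genes) averaged 11.35 to 12.45 in the 11 groups. Mast cell and basophil markers (4 measured) averaged 4.75 to 5.39 and NK cell markers (1 measured) 4.75 to 5.43, and none of them passed the filter on dim probe sets. Of 5 T cell markers, Cd3d and Cd4 did not pass that filter. Cd3e and Cd3g passed it, with group means up to 6.39 and 6.58. The group means of Cd8a lay between 8.62 and 9.38, and the list averaged 5.92 to 6.44. Myeloid markers averaged 6.49 to 7.30. Itgam and Lyz2 did not pass the filter, while Csf1r was higher with TCDD at all 5 times (by 1.58 to 1.88 ± 0.10) and Adgre1 from 12 h on (by 0.70 to 0.94 ± 0.21). Cd14, the last of the 3 tested (group means 5.61 to 6.62), was not called with TCDD. Whether these markers bear on the cytokine genes was not tested. Arrays had median signals from 45.2 to 99.2, and 4 arrays stood apart in median signal or in the 3' to 5' ratio of a control transcript: untreated replicates 3 and 4, replicate 4 of the 12 h DMSO group and replicate 2 of the 48 h DMSO group. Leaving them out is named below where it ends a call. In bulk RNA, fewer cells of a type and less RNA per cell cannot be told apart.

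Of the 13 probe sets, 11 passed the filter, a highest group mean above the median of all values (6.21). The nearest to that limit were the second Il10ra probe set, which passed by 0.23, and the third Il4ra probe set, which missed it by 0.50. The third Il10ra probe set, with group means up to 4.28, also missed it. The other 10 probe sets apart from Il4 are counted in the TCDD comparisons, and all 11 in the vehicle comparisons.

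Il4 carried the widest range of group means among the 7 genes, 2.81, and the TCDD groups held its low end. In untreated cells the 4 arrays read 9.16, 9.57, 9.96 and 10.02. Vehicle cells read 8.60, 9.03, 9.80 and 9.73 at 8 h, 8.65, 8.78, 9.30 and 9.77 at 12 h, and 9.0, 8.92, 9.28 and 9.58 at 24 h (replicates 1 to 4). The vehicle arrays up to 24 h thus overlapped the untreated ones. At 36 h vehicle cells read 9.65, 8.94, 9.68 and 9.16, and at 48 h they read 11.25, 10.27, 10.70 and 9.70. The 48 h vehicle group held the 3 highest values of all 44 arrays.

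With TCDD, Il4 read 7.42, 7.64, 8.25 and 7.96 at 8 h, and 7.45, 7.79, 7.60 and 7.84 at 12 h. It read 8.24, 8.15, 8.25 and 8.08 at 24 h, 8.45, 8.73, 8.61 and 8.38 at 36 h, and 9.39, 9.06, 9.68 and 9.18 at 48 h. At each of the 5 times all TCDD arrays lay below all vehicle arrays, at 48 h by the narrow step from 9.68 to 9.70. The mean changes were -1.47, -1.45, -1.02, -0.81 and -1.15 ± 0.27 at 8, 12, 24, 36 and 48 h, or 2.78, 2.74, 2.02, 1.76 and 2.22 times lower. In the 20 same-day pairs the difference ran from -1.93 to -0.21 with a median of -1.19, so that no pair went the other way. Of all probe sets tested, 0.709% were lower with TCDD in 20 of 20 pairs, a share from which nothing is read here because Il4 was chosen for its fall. Over the other settings tried, the 8 h change lay between -1.57 and -1.30 and the 36 h change between -1.02 and -0.69.

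**Figure D1:**
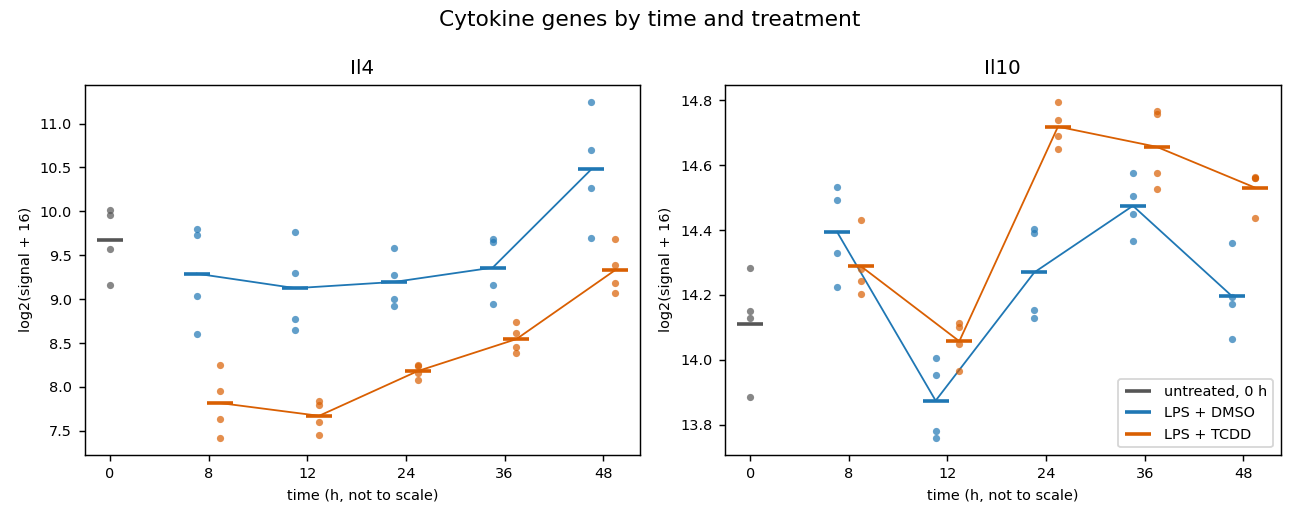
Log2(signal + 16) of Il4 (left) and Il10 (right) against time in hours (spaced evenly, not to scale) for untreated, LPS plus DMSO and LPS plus TCDD cells. Points are single arrays, bars are group means of 4 arrays, and lines join the means. The Il4 points with TCDD lie below the vehicle points at each time, from 7.42 to 9.68, and the Il10 groups separate at 24 and 48 h only.

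Against untreated cells, vehicle cells had Il4 changes of -0.39, -0.55, -0.48 and -0.32 ± 0.27 from 8 to 36 h, none of them called (adjusted p = 0.353, 0.152, 0.248 and 0.433, limma). At 48 h Il4 rose by 0.80 ± 0.27 (adjusted p = 0.0169, limma), with overlapping groups. That call rests on day 1, whose vehicle array read 11.25: without replicate 1 the change was 0.37 (adjusted p = 0.312, limma), and it was also lost without replicate 2 or 3 (0.0648 and 0.064). The same vehicle arrays entered the difference between TCDD and vehicle for which Il4 was chosen. The p-values of Il4 against untreated cells are therefore not independent of that choice, and the 48 h rise is best read as a description. In the order of the 11 group means, DMSO 48 h came first at 10.48 and untreated second at 9.68, and the TCDD groups of 12, 8, 24 and 36 h came last at 7.67, 7.82, 8.18 and 8.54. Of the 10 steps between neighbours in that order, 9 joined groups that overlapped, and the one that did not lay between TCDD 36 h and TCDD 24 h.

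Il10 was high in untreated and in LPS cells alike, with deposited signals from 13030 to 32330, and its group means spanned 0.84. Untreated cells read 13.89, 14.13, 14.28 and 14.15. Vehicle cells read 14.23, 14.33, 14.49 and 14.53 at 8 h, 13.76, 13.78, 13.95 and 14.01 at 12 h, and 14.15, 14.13, 14.39 and 14.40 at 24 h. The 12 h group was the lowest of the vehicle groups and overlapped the untreated arrays. Vehicle cells then read 14.45, 14.58, 14.37 and 14.51 at 36 h and 14.19, 14.06, 14.17 and 14.36 at 48 h. With TCDD the arrays read 14.28, 14.20, 14.24 and 14.43 at 8 h, 14.12, 14.10, 13.97 and 14.05 at 12 h, and 14.74, 14.69, 14.65 and 14.80 at 24 h. They read 14.76, 14.53, 14.58 and 14.77 at 36 h and 14.56, 14.56, 14.44 and 14.56 at 48 h. At 24 and 48 h every TCDD array lay above every vehicle array, and at 8, 12 and 36 h the groups overlapped.

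Il10 rose with TCDD by 0.45 ± 0.09 at 24 h (adjusted p = 0.000802) and by 0.33 ± 0.09 at 48 h (adjusted p = 0.0167, limma), which is 1.36 and 1.26 times higher. The changes at 8, 12 and 36 h were -0.11, 0.18 and 0.18 ± 0.09 and were not called (adjusted p = 0.822, 0.276 and 0.368, limma). After quantile normalisation TCDD arrays were higher in 16 of 20 same-day pairs, with 3 of the other 4 at 8 h. In the deposited signals the 36 h means ran the other way, 23030 with TCDD against 23850 in vehicle cells. On the values as deposited, without quantile normalisation, the 24 h change was 0.39 with an adjusted p of 0.11, so that call was lost. The 48 h call was lost there too, and without replicate 1, 2 or 3 or without the 4 arrays that stood apart (adjusted p from 0.0503 to 0.267, limma). An F test of whether the TCDD change differs between times gave Il10 an adjusted p of 0.0399 (limma), while the other 9 member probe sets tested were not called. Across all probe sets 3.97% were called in that test. Leaving out any 1 day, or using the values as deposited or no filter, ended this call, with an adjusted p of up to 0.525.

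In vehicle cells Il10 rose over untreated cells by 0.28 ± 0.09 at 8 h (adjusted p = 0.0194) and by 0.36 ± 0.09 at 36 h (adjusted p = 0.00211, limma). The 8 h call was lost when any 1 day was left out (adjusted p from 0.0596 to 0.108, limma). At 12 h the change was -0.24 (adjusted p = 0.0515, and 0.0187 with the replicate block, limma), and at 24 and 48 h it was 0.16 and 0.09 (adjusted p = 0.251 and 0.492, limma). All 10 neighbouring pairs in the order of its group means overlapped.

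Il4ra, the chain that binds interleukin 4, was lower in all LPS groups than in untreated cells. Its leading probe set, the one with the highest mean, read 8.87, 9.25, 9.74 and 9.76 in untreated cells. Vehicle cells read 7.91, 8.10, 8.31 and 8.23 at 8 h, 7.36, 8.04, 8.22 and 7.91 at 12 h, and 7.59, 7.59, 7.16 and 7.37 at 24 h. They read 7.58, 7.71, 7.31 and 7.24 at 36 h and 7.60, 8.18, 7.56 and 7.49 at 48 h. None of the 20 vehicle arrays reached the lowest untreated array. Il4ra fell by 1.27, 1.52, 1.98, 1.94 and 1.70 ± 0.20 at 8, 12, 24, 36 and 48 h (adjusted p = 7.2e-06, 2.5e-07, 1.12e-09, 1.18e-09 and 9.53e-09, limma), or 2.40 to 3.94 times, and was called in all settings tried. The second probe set, which correlated with the first at r = 0.667 over 44 arrays, changed by -1.48, -1.88, -1.79 and -1.63 ± 0.43 from 12 to 48 h, all called. Its 12 h call was lost without replicate 1 or 2 or the arrays that stood apart (adjusted p = 0.0711, 0.0695 and 0.108) and its 36 h call without replicate 3 (0.0518, limma). Its 8 h change of -0.98 had an adjusted p of 0.108, and 0.0466 with the replicate block (limma).

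With TCDD, Il4ra means were 7.87, 7.91, 7.66, 7.73 and 7.77 against vehicle means of 8.14, 7.88, 7.43, 7.46 and 7.71. The changes were -0.27, 0.02, 0.23, 0.27 and 0.07 ± 0.20, with groups overlapping at all times and adjusted p from 0.65 to 0.977 (limma). The 95% interval ran between -0.67 and 0.13 at 8 h and between -0.13 and 0.67 at 36 h. A fall of up to 0.67 at 8 h and a rise of up to 0.67 at 36 h are therefore within what 4 arrays per group allow. The other tested probe set of Il4ra was not called either (adjusted p from 0.615 to 0.968, limma).

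**Figure D2:**
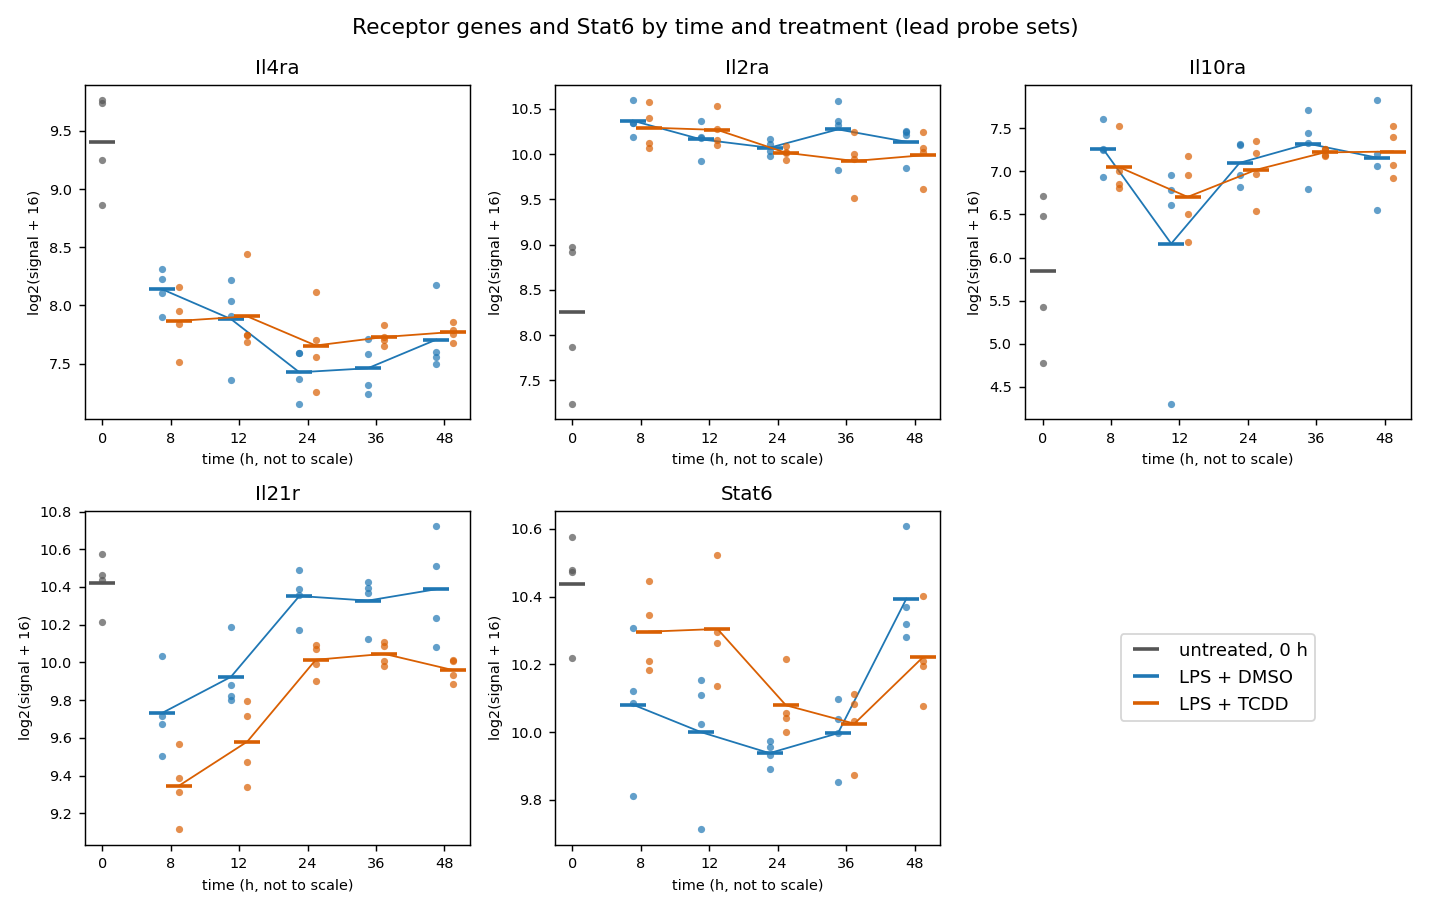
Log2(signal + 16) of the leading probe sets of Il4ra, Il2ra, Il10ra, Il21r and Stat6 against time in hours (spaced evenly, not to scale). Points are single arrays, bars group means of 4, lines join the means, and each panel has its own vertical axis. Il4ra and Il2ra step away from the untreated arrays in both LPS arms, and Il21r lies lower with TCDD at all 5 times.

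Il2ra, the alpha chain of the interleukin 2 receptor and an activation marker of lymphocytes, moved the other way. Untreated cells read 8.92, 8.98, 7.86 and 7.24 on its leading probe set. Vehicle cells read 10.34, 10.60, 10.35 and 10.19 at 8 h, and over the 5 times the 20 vehicle arrays lay between 9.83 and 10.60, all above the untreated ones. Il2ra rose by 2.12, 1.91, 1.82, 2.02 and 1.89 ± 0.23 at 8, 12, 24, 36 and 48 h (adjusted p = 4.63e-09, 3.99e-08, 1.45e-07, 1.02e-08 and 1.93e-08, limma), which is 3.53 to 4.34 times. Untreated replicates 3 and 4, which are among the arrays that stood apart, were the 2 lowest, and without the 4 arrays that stood apart the rises were smaller, from 1.12 to 1.42, and still called. The second probe set (r = 0.693 with the first) rose by 1.60, 1.01, 1.24 and 1.18 ± 0.33 from 8 to 36 h. At 48 h it changed by 0.55 (adjusted p = 0.199, and 0.00409 with the replicate block, limma). Without the 4 arrays apart, its changes at 12, 24 and 36 h were 0.66, 0.72 and 0.66 and no longer called. The 12 h call was also lost without replicate 2, 3 or 4 (adjusted p = 0.0736, 0.0961 and 0.0812) and the 24 h call without replicate 3 (0.0551, limma). TCDD gave Il2ra changes of -0.08, 0.10, -0.06, -0.35 and -0.15 ± 0.23, none called (adjusted p from 0.573 to 0.984, limma).

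Il10ra, the ligand-binding chain of the interleukin 10 receptor, was measured less firmly, its untreated arrays lying close to the filter limit. Untreated cells read 6.48, 6.72, 5.42 and 4.77. Vehicle cells read 7.25, 7.26, 7.60 and 6.94 at 8 h, and 6.61, 6.78, 6.95 and 4.31 at 12 h. The last of these, DMSO 12 h replicate 4, is one of the arrays that stood apart. Il10ra rose by 1.41, 1.25, 1.47 and 1.31 ± 0.38 at 8, 24, 36 and 48 h (adjusted p = 0.00645, 0.0204, 0.00379 and 0.00625, limma), and the change at 12 h was 0.31 (adjusted p = 0.64, limma). Without the 4 arrays that stood apart, which include 2 untreated ones and 1 of the 48 h vehicle group, the rises were 0.67 at 8 h, 0.50 at 24 h and 0.34 at 48 h, with adjusted p of 0.0804, 0.255 and 0.366 (limma), while the 36 h rise was 0.72 and still called. The 8 h call was also lost without replicate 3, and the 24 h call without replicate 1 or 3. The second probe set was not called at any time and correlated with the first at only r = 0.357. TCDD changed the leading probe set by -0.22, 0.54, -0.08, -0.10 and 0.07 ± 0.38, none called (adjusted p from 0.527 to 0.966, limma), and the 12 h change was -0.08 without the arrays that stood apart.

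Il21r, the interleukin 21 receptor chain and the gene next to Il4ra in the RefSeq gene order, was lower with TCDD throughout. Untreated cells read 10.21, 10.44, 10.57 and 10.46. Vehicle cells read 9.72, 10.03, 9.51 and 9.68 at 8 h, 9.82, 10.19, 9.80 and 9.88 at 12 h, and 10.17, 10.49, 10.36 and 10.39 at 24 h. The 8 and 12 h arrays were all below the untreated ones, and by 24 h the groups overlapped again. Later vehicle arrays read 10.12, 10.43, 10.37 and 10.39 at 36 h and 10.08, 10.72, 10.24 and 10.51 at 48 h. With TCDD they read 9.31, 9.57, 9.12 and 9.39 at 8 h, 9.71, 9.79, 9.34 and 9.47 at 12 h, and 9.90, 10.09, 10.07 and 9.99 at 24 h. They read 9.98, 10.11, 10.01 and 10.09 at 36 h and 9.89, 9.93, 10.01 and 10.01 at 48 h. From 12 h on every TCDD array lay below every vehicle array, although the 12 h groups came within 0.01 of each other, and at 8 h they overlapped.

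The Il21r changes with TCDD were -0.39, -0.34, -0.34, -0.28 and -0.43 ± 0.12 at 8, 12, 24, 36 and 48 h. In the fit without the day, the last was called (adjusted p = 0.0294) and the others were not (0.0989, 0.104, 0.126 and 0.281, limma). With the replicate block, which takes out differences between days, 4 of the 5 were called (adjusted p = 0.0112, 0.0165, 0.0202 and 0.00243 at 8, 12, 24 and 48 h) and the 36 h change was not (0.0717, limma). All 20 same-day pairs were lower with TCDD, from -0.79 to -0.11. The share of all probe sets that were lower in 20 of 20 pairs was 0.709%. The 48 h call was lost without replicate 2, 3 or 4 and without the 4 arrays that stood apart (adjusted p from 0.0587 to 0.262, limma), and DMSO 48 h replicate 2 was the highest Il21r value of all. The F test found no difference between times for Il21r (adjusted p = 0.998, limma). Vehicle cells fell below untreated cells by 0.69 at 8 h (adjusted p = 6.04e-05) and by 0.50 at 12 h (adjusted p = 0.00282, limma), the latter not called without replicate 3 or 4 or without the arrays that stood apart (0.0651, 0.0553 and 0.0874, limma). From 24 h the changes were -0.07, -0.09 and -0.03 (adjusted p from 0.642 to 0.867, limma).

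**Figure D3:**
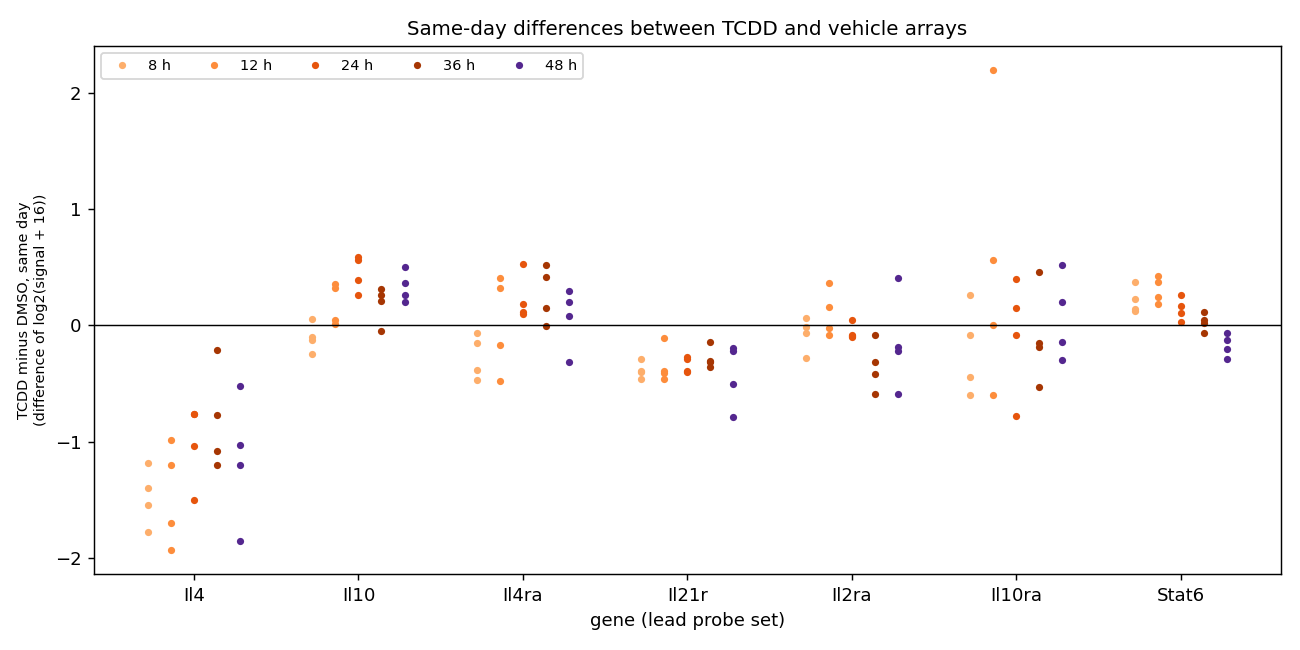
Difference of log2(signal + 16), TCDD minus DMSO array of the same day, for the leading probe set of each gene, with 4 points for each time from 8 h (left, light) to 48 h (right, purple). All 20 points lie below 0 for Il4 (down to -1.93) and Il21r (down to -0.79), 16 of 20 lie above 0 for Il10, and the lone Il10ra point at 2.19 pairs with the low DMSO 12 h replicate 4.

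Stat6, which carries the interleukin 4 signal to the nucleus, spanned the smallest range of group means, 0.50. Its leading probe set read 10.22, 10.47, 10.58 and 10.48 in untreated cells. Vehicle arrays lay between 9.71 and 10.31 at 8 and 12 h and between 9.85 and 10.10 at 24 and 36 h. At 48 h they were back at 10.32, 10.61, 10.37 and 10.28. Stat6 fell by 0.35, 0.44, 0.50 and 0.44 ± 0.11 at 8, 12, 24 and 36 h (adjusted p = 0.0127, 0.00212, 0.000655 and 0.00161, limma), the 8 h call being lost without replicate 2 or 3 or without the 4 arrays apart, and its change at 48 h was -0.04 (adjusted p = 0.795, limma). The second probe set (r = 0.768 with the first) was called at 12, 24 and 36 h, in each case not without replicate 4 (adjusted p = 0.0528, 0.0714 and 0.254, limma). Its 12 and 36 h calls were also lost without replicate 2 (adjusted p = 0.108 and 0.141), and its 36 h call without a filter (0.0502, limma). With TCDD the changes were 0.22, 0.30, 0.14, 0.03 and -0.17 ± 0.11, none called (adjusted p from 0.0839 to 0.962, limma). At 12 h the change of 0.30 had an adjusted p of 0.0315 with the replicate block, and without the 4 arrays that stood apart it was 0.36 with an adjusted p of 0.0395 (limma).

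Apart from Il4, the member probe sets gave few calls with TCDD and many with LPS and vehicle. With TCDD 0 of 10 were called at 8 h, 0 at 12 h, 1 at 24 h, 0 at 36 h and 2 at 48 h, where 2.52%, 5.82%, 4.74%, 3.53% and 6% of all probe sets were called (limma). The shares called higher were 1.74%, 3.78%, 3.19%, 2.26% and 3.12%, and those called lower 0.785%, 2.04%, 1.55%, 1.27% and 2.87%. At an unadjusted p under 0.05 the member counts were 2, 4, 2, 2 and 2, and with the replicate block 1, 2, 2, 0 and 2 were called. Their median changes were -0.13, 0.14, 0.11, 0.02 and -0.10, beside medians between -0.03 and 0.00 over all probe sets. Groups did not overlap for 0, 2, 3, 1 and 2 of the 10, where 8.5%, 10.7%, 12.7%, 10.7% and 9.67% of all did not. Among vehicle cells 7 of 11 member probe sets were called at 8 h (4 higher, 3 lower), 7 at 12 h (2 higher, 5 lower), 7 at 24 h (3 higher, 4 lower), 8 at 36 h (4 higher, 4 lower) and 5 at 48 h (3 higher, 2 lower). The shares of all probe sets called were 20.8%, 21.4%, 16.7%, 25.8% and 37.6%, with 10.9%, 10.9%, 9.03%, 12.8% and 18.4% higher and 9.93%, 10.5%, 7.7%, 13% and 19.1% lower. Vehicle and untreated arrays did not overlap for 6, 5, 7, 7 and 3 of the 11, where 18.4%, 17.1%, 17%, 21.2% and 26.6% of all did not. The 5 vehicle comparisons share the untreated arrays, so their counts are not independent. Il4 is among the 11, and its call at 48 h is limited by the way Il4 was chosen.

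The other chains that pair with these receptors were measured for all 7 listed genes. With TCDD 3 of 7 rose at 12 h, 1 at 24 h and 1 at 48 h, with 0 called at 8 and 36 h (3 and 1 at an unadjusted p under 0.05) and none lower at any time. Of all probe sets, 1.74%, 3.78%, 3.19%, 2.26% and 3.12% were called higher with TCDD at 8, 12, 24, 36 and 48 h. The shares called lower were 0.785%, 2.04%, 1.55%, 1.27% and 2.87%. The counts of the lists that follow stand beside the same shares. At 12 h Il13ra1, the chain that joins Il4ra in the second type of interleukin 4 receptor, rose by 1.58 ± 0.29. Il2rb, the interleukin 2 receptor beta chain, rose by 0.68 ± 0.20 at 12 h (adjusted p = 0.0326, limma). Il10rb, the partner of Il10ra, rose by 0.48 and 0.44 ± 0.12 at 12 and 24 h. Il15ra, the interleukin 15 receptor chain beside Il2ra in the genome, rose by 0.59 ± 0.14 at 48 h (adjusted p = 0.00569, limma). The replicate block gave 1, 3, 2, 0 and 3 calls of 7. The leading Il13ra1 probe set passed the filter in 3 of 11 groups only, and TCDD at 24 h was the highest of them. Its rise with TCDD, counted above, is therefore a description without a test. Its 2 other probe sets changed by 1.01 and 0.73 at 12 h and were not called. The other probe sets of Il2rb (0.63 at 12 h, adjusted p = 0.112), Il10rb (0.29 and 0.20 at 12 and 24 h) and Il15ra (0.28 at 48 h, adjusted p = 0.322, limma) were not called either. The list's median changes with TCDD were 0.32, 0.48, 0.34, 0.25 and 0.28. In vehicle cells 4, 2, 3, 3 and 3 of the 7 were called at 8, 12, 24, 36 and 48 h. For all probe sets the shares were 20.8%, 21.4%, 16.7%, 25.8% and 37.6%, which also stand beside the vehicle counts of the lists below. Il7r, the interleukin 7 receptor chain, fell by 1.80 to 1.97 ± 0.26 at all 5 times, while Il2rb changed by -0.62 at 8 h and by 1.12 and 0.87 at 24 and 36 h. Il10rb changed by -0.33 and -0.61 at 8 and 12 h and by 0.75 at 48 h, and Il13ra1 was higher at every time but 12 h, by 0.84 to 1.09. The lowest group mean of Il13ra1 was 4.78, near the lowest possible value. Its rises in vehicle cells are counted above but, like its rise with TCDD, are a description without a test.

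Among ligands, 4 of 7 listed genes passed the filter, and Il5, Il7 and Il9 did not. Il21, the ligand of Il21r, had a mean of 6.66 with TCDD at 8 h against 4.72 in vehicle cells, a difference of 1.95 ± 0.34. It passed the filter only through that TCDD group, so the difference is a description without a test. The same holds for Il2, which passed only through the 8 h vehicle group and lay 1.79 ± 0.33 above untreated cells there. At the later times 0 of 4 ligands were called with TCDD (1, 3, 0 and 0 at an unadjusted p under 0.05 at 12, 24, 36 and 48 h), and with the replicate block Il15 was called at 24 h (0.70, adjusted p = 0.0772 without and 0.00893 with the block, limma). In vehicle cells Il13 rose by 1.44 to 2.00 ± 0.47 from 12 to 48 h, and Il15 by 1.15 and 1.56 ± 0.23 at 36 and 48 h.

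The genes beside Il4 and Il10 in the RefSeq gene order gave no call with TCDD on their leading probe sets in the fit without the day, and 2 calls with it. Il4 lies between Kif3a, a kinesin subunit gene, and Il13, followed by Rad50, a DNA repair gene, and Il5; Il10 lies between Il19 and Mapkapk2, a kinase gene, with Il24 and Il20 on the Il19 side. Of 8 such neighbours listed, 6 were tested, and 0 were called with TCDD at any time (0, 0, 2, 1 and 1 at an unadjusted p under 0.05, limma). With the replicate block Mapkapk2 was called at 24 h (0.45, adjusted p = 0.0778 without and 0.0328 with the block) and Kif3a at 48 h (-0.48, adjusted p = 0.0509 and 0.00347, limma). Il13, which like Il4 is a type 2 cytokine gene, changed by -0.34, -0.71, -1.16, 0.43 and 0.80 ± 0.47 (adjusted p from 0.198 to 0.935, limma). One of the 3 other Kif3a probe sets changed by -0.57 at 24 h and was called. In vehicle cells the neighbours called were all higher, 1, 2, 3, 2 and 4 of 6 at the 5 times, and included Kif3a (0.48, 0.57 and 1.34 ± 0.15 at 24, 36 and 48 h, with another probe set called at -0.37 at 48 h), Rad50 (0.63 ± 0.11 at 48 h) and Il24 (1.82 ± 0.34 at 8 h).

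Janus kinases and STATs link these receptors to transcription, and 7 such genes were measured. With TCDD 1, 2 and 1 of 7 rose at 8, 12 and 24 h, 0 were called at 36 h (2 at an unadjusted p under 0.05) and 2 fell at 48 h. Jak2 rose by 0.67, 0.74 and 0.80 ± 0.12 at 8, 12 and 24 h (adjusted p = 0.000674, 0.000101 and 2.14e-05, limma), and its second probe set was called at the same times. Stat3, the factor downstream of interleukin 10 and 21, rose by 0.60 ± 0.18 at 12 h, and another of its probe sets was called at 8, 12, 36 and 48 h (0.57, 0.59, 0.43 and 0.41), while the remaining 2 were not called at any time. Under the replicate block 2, 2, 2, 1 and 3 of the 7 were called, Stat3 at 8, 12 and 36 h. At 48 h Stat5a, downstream of interleukin 2, fell by 0.95 ± 0.17 (adjusted p = 0.000224) and Jak3, the kinase bound to the common gamma chain, fell by 0.61 ± 0.19 (adjusted p = 0.0416, limma). A second Stat5a probe set changed by -0.60 there and was not called. In vehicle cells 5, 4, 3, 3 and 4 of 7 were called. Jak2 fell at all 5 times, by 0.46 to 0.76 ± 0.12, Tyk2 fell at 8 to 36 h, by 0.54 to 0.77 ± 0.15, and Stat5a rose at 8 and 48 h (0.71 and 0.91 ± 0.17). Stat5b rose at every time but 24 h, by 0.38 to 1.00 ± 0.13, and its other probe set was called at all 5 times (0.76 at 24 h).

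**Figure D4:**
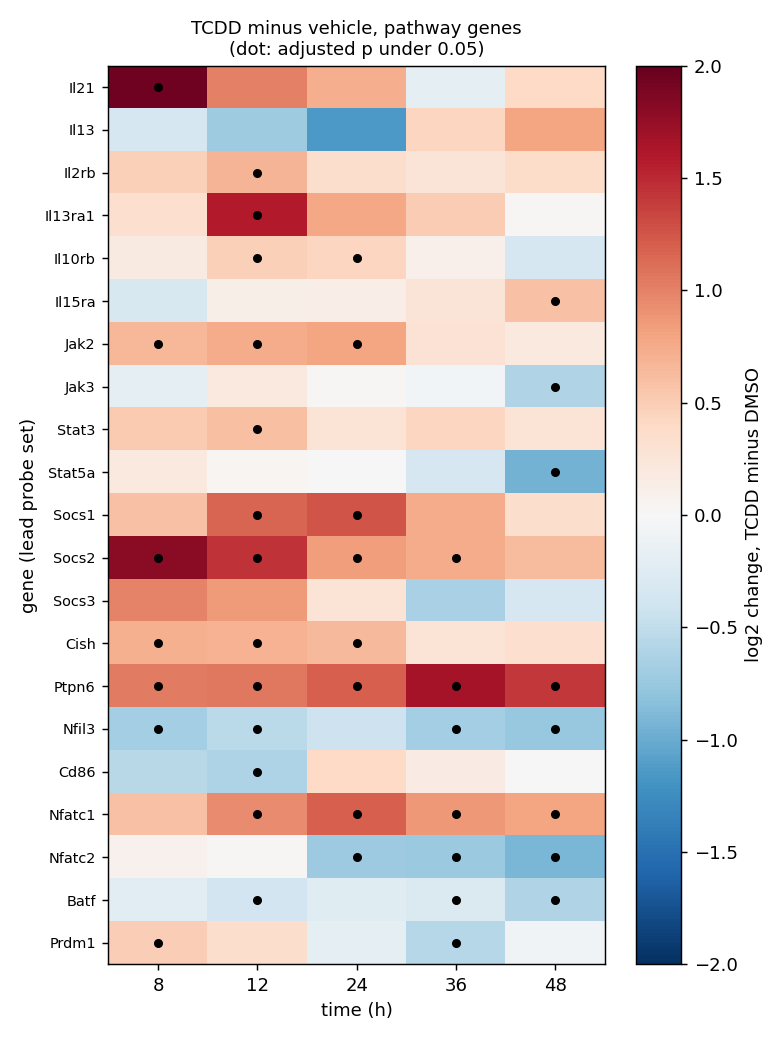
Log2 change, TCDD minus DMSO, of 21 other genes of the pathway (rows, leading probe sets) at 8, 12, 24, 36 and 48 h (columns), with red for higher and blue for lower with TCDD. The 21 rows are a selection from the listed genes, so the dots do not give the share of the lists that was called. Among those left out are Ptpn1 and Ptpn2, called lower at 48 h, and H2-Aa and H2-Ab1, not called with TCDD. Black dots mark an adjusted p under 0.05 in the limma fit, the Il21 dot at 8 h being that of a gene that passed the filter only through that TCDD group. The Il13ra1 dot at 12 h is that of a gene that passed in 3 of 11 groups only, TCDD at 24 h being the highest. Ptpn6 carries a dot at all 5 times (1.05 to 1.67) and Jak2 and Cish at 8, 12 and 24 h.

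Among feedback inhibitors of cytokine signals, the calls with TCDD up to 36 h were all rises. Of 8 tested, 3, 4, 4 and 2 rose at 8, 12, 24 and 36 h, and at 48 h 1 rose and 2 fell, with list medians of 0.65, 0.77, 0.46, 0.18 and 0.18. Of all probe sets, 1.74%, 3.78%, 3.19% and 2.26% were called higher at 8 to 36 h and 0.785%, 2.04%, 1.55% and 1.27% lower. Rises were thus the commoner calls over the whole array too. At 48 h the shares were 3.12% higher and 2.87% lower. Ptpn6, which encodes the phosphatase SHP-1, rose by 1.05, 1.05, 1.20, 1.67 and 1.42 ± 0.14 (adjusted p from 5.37e-10 to 6.81e-06, limma), and its second probe set was called at all 5 times too. Socs2, a suppressor of cytokine signalling, rose by 1.80, 1.44, 0.83 and 0.73 ± 0.20 at 8, 12, 24 and 36 h, and Socs1, which restrains Janus kinases, by 1.16 and 1.26 ± 0.29 at 12 and 24 h. Cish, a STAT5 target of the same family, rose by 0.71, 0.69 and 0.65 ± 0.20 at 8, 12 and 24 h. The 2 genes lower at 48 h were the phosphatase genes Ptpn1 (-0.36 ± 0.11) and Ptpn2 (-0.33 ± 0.07). The leading Socs3 probe set was not called, although another one rose by 0.94 and 0.79 at 8 and 12 h. With the replicate block the leading one was called at those times (adjusted p = 0.00895 and 0.0168, limma), and the list gave 5, 5, 4, 3 and 4 calls. In vehicle cells 2, 3, 3, 3 and 4 of 8 were called. Socs3, a target and inhibitor of STAT3, rose by 1.92 to 3.06 ± 0.32 at all 5 times, Ptpn6 fell by 0.94, 1.41 and 1.18 ± 0.14 at 24, 36 and 48 h, Ptpn1 fell by 0.40 to 0.61 at 8 to 36 h, and Ptpn2 rose by 0.32 at 48 h. Of the other Ptpn2 probe sets, 1 was called higher there (0.58) and 1 lower (-0.62).

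Among genes known to respond to interleukin 4 in B cells, the TCDD calls on leading probe sets were falls of Nfil3 and Cd86. Of 5 tested (Fcer2a, the low-affinity IgE receptor gene, did not pass the filter), 1, 2, 0, 1 and 1 fell at 8, 12, 24, 36 and 48 h and none rose, with 2 at an unadjusted p under 0.05 at 24 h, beside 0.785%, 2.04%, 1.55%, 1.27% and 2.87% of all probe sets called lower. Nfil3, a transcription factor gene that interleukin 4 induces, fell by 0.69, 0.55, 0.68 and 0.75 ± 0.15 at 8, 12, 36 and 48 h (adjusted p = 0.00503, 0.0219, 0.00475 and 0.00106, limma), and Cd86, a co-stimulatory ligand, fell by 0.62 ± 0.17 at 12 h. The other Cd86 probe set was called lower at 8 and 12 h (-0.65 and -0.59) and higher at 24 h (0.54, adjusted p = 0.00263, limma). Blocked by replicate, 2, 2, 0, 1 and 1 of the 5 were called. The MHC class II genes H2-Aa and H2-Ab1 were not called with TCDD at any time. In vehicle cells 2, 2, 4, 3 and 3 of the 5 were called: H2-Aa fell at all 5 times by 0.28 to 0.79 ± 0.10, H2-Ab1 fell at 12 to 48 h by 0.86 to 1.51 ± 0.23, and Nfil3 rose at 24, 36 and 48 h by 0.46, 1.16 and 1.70 ± 0.15. Cd86 changed by 0.66 at 8 h and by -0.63 at 24 h, and its other probe set was called lower from 12 to 48 h (-0.35 to -0.99).

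Transcription factors that act on Il4 or Il10 in lymphocytes moved in both directions with TCDD. Of 7 tested, Maf having not passed the filter, 1, 1, 1, 1 and 1 rose and 0, 2, 1, 3 and 2 fell at 8, 12, 24, 36 and 48 h. Nfatc1 rose by 0.94, 1.19, 0.87 and 0.78 ± 0.21 at 12, 24, 36 and 48 h, while Nfatc2, another calcium-regulated factor of the same family, fell by 0.73, 0.74 and 0.91 ± 0.18 at 24, 36 and 48 h. The other Nfatc2 probe set changed by -0.32, 0.50 and 0.25 at those times and was not called. Batf, an AP-1 family factor, fell by 0.38, 0.29 and 0.60 ± 0.07 at 12, 36 and 48 h, and Prdm1, which encodes the plasma cell factor Blimp-1, changed by 0.49 ± 0.14 at 8 h and by -0.57 at 36 h. In vehicle cells 4, 4, 4, 4 and 5 were called, at 48 h with Gata3, which passed the filter only through that group. Batf, Prdm1 and Irf4, a factor needed for plasma cells, rose at all 5 times, by 1.10 to 1.86, 1.98 to 2.82 and 0.72 to 1.43, and Nfatc1 fell by 1.95 to 2.77 ± 0.21.

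Of these transcription factors 3, 4, 3, 5 and 3 were called with TCDD under the replicate block. Over the 7 lists of pathway and neighbouring genes, 145 changes on leading probe sets were called, those of Il13ra1, Il21, Il2 and Gata3 included. The block lost 0 of these calls and added 43. That total covers the TCDD and the vehicle comparisons, whose shares over all probe sets are given above. Of the 103 calls for genes with a further tested probe set, 76 had another one called the same way and 2 one called the opposite way, those of Ptpn2 and Kif3a in vehicle cells at 48 h.

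The genes whose levels tracked each member most closely over the 44 arrays were found among 11968 others by Pearson's r, as a description of arrays that share days and groups. For Il4 they were Fam169b (0.816), Sh3pxd2b (0.801) and Fam126a (0.801), and for Il10 they were Plac8 (0.761), Ifi209 (0.75) and Oasl2 (0.714). Il4ra was nearest to Rcsd1 (0.849), Zmiz2 (0.846) and the immediate early gene Egr1 (0.845). Il2ra was nearest to Ccnd2, which encodes cyclin D2 (0.923), Milr1 (0.844) and Zc3h12a, a ribonuclease gene that limits cytokine transcripts (0.841). Il21r was nearest to the kinase gene Mapk14 (0.897), Pik3r2 (0.89) and Dhcr7 (0.858), Il10ra to Eri2 (0.78), Zfp513 (0.777) and Agrn (0.773), and Stat6 to Axin2 (0.758) and the MHC class II genes H2-Eb1 (0.75) and H2-Oa (0.747). Among the members themselves the strongest relations were a negative one between Il4ra and Il2ra (r = -0.737) and positive ones between Il4 and Il21r (0.585) and between Il4ra and Stat6 (0.58). After each group's mean was subtracted, these were -0.235, -0.354 and 0.565, so the relation of Il4 and Il21r changed sign within groups. Il4 and Il10 had r = -0.088.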

How the data were processed

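One array per sample was hybridised, 44 in all. The authors deposited linear signal intensities from GCOS 1.0, per the submitters' processing notes. Leaving out the lowest and highest 2% of intensities, each deposited column averages 500, so arrays had been scaled before deposit; any other step is not stated in the labels or files. The intensities were quantile normalized and transformed to log2(value + 16). From 45101 probe sets, 64 controls were removed. In the platform annotation 34945 of the rest have 1 symbol, 932 several and 9160 none; 34754 were found in the GRCm38.p6 gene table, with 0 symbols changed. A probe set was tested if its highest group mean passed 6.21, the median of all values, which 25236 did.

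limma 3.58.1 (R 4.3.3) fitted the means of the 11 groups together, with moderated two-sided tests, an F test for differences between times and Benjamini-Hochberg adjustment over all tested probe sets. The script was tested on simulated data. The spread behind the p-values is that of 1 line cultured on different days, and 4 arrays per group limit the precision. The series' design text ties each replicate to its own day, so replicate numbers pair the samples. As a check, deviations from the group means had a median r of 0.171 between same-numbered arrays and -0.06 between others, and of 20 same-numbered TCDD and vehicle arrays at one time, 18 had r over 0.1. The day is not in the main fit; for the members, results of the replicate block appear where they change a call, and for the lists as counts.

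The genes, pathway lists and markers were chosen with earlier results of these data known, so the p-values are not independent support for that choice. All member probe sets are described. Named from each list are up to 4 called genes per set of comparisons, by smallest adjusted p, and the 3 genes most like each member by r. Cish, Ptpn1 with TCDD, uncalled ligands and neighbours, list genes under the filter, further probe sets and markers were named after their values were seen. Alternatives were a fixed or a random day term, a fit of just the compared groups, no filter, a filter higher by 1, deposited values without quantile normalization, leading probe sets alone, pseudocounts of 1 and 64, a variance trend, and each day left out. The alternative without 4 arrays that stood apart was chosen after the data had been seen. Plots were made in matplotlib 3.10.9 (Python 3.11.15).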

Additional observations from a re-analysis of the deposited data

Results flagged for a closer look

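In 8 of 121 groups of 4 arrays checked over the 11 tested probe sets, the gap between 1 array and the other 3 made up most of the range of the 4. Chance alone gives about 1 in 20, and the count found is near that. The rule weighs the gap against the spread, so a flagged gap can be small. For Il10, TCDD 48 h replicate 3 read 14.44 while the others were at 14.56. The leading Il4ra probe set read 8.18 in DMSO 48 h replicate 2 (others 7.49 to 7.60) and 8.45 in TCDD 12 h replicate 2 (others 7.68 to 7.75), and the second Il4ra probe set read 4.53 in TCDD 12 h replicate 4 (others 7.11 to 7.50). For Il10ra, the leading probe set read 4.31 in DMSO 12 h replicate 4 (others 6.61 to 6.95). The second read 6.31 in DMSO 24 h replicate 2 (others 5.78 to 5.87) and 4.72 in TCDD 48 h replicate 4 (others 6.25 to 6.57). The leading Il2ra probe set read 9.85 in DMSO 48 h replicate 2 (others 10.21 to 10.25). DMSO 12 h replicate 4 and DMSO 48 h replicate 2 also stood apart in technical measures.

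The TCDD change of Il10 differed between times in the F test (adjusted p = 0.0399, limma). Same-day pairs of opposite sign at different times were seen for 2 other genes. For the leading Il4ra probe set all 4 pairs were lower with TCDD at 8 h (mean -0.27) and higher at 24 h (mean 0.23), a difference of 0.50. For the leading Stat6 probe set all 4 pairs were lower at 48 h (mean -0.17) and higher at 8, 12 and 24 h (means 0.22, 0.30 and 0.14), differences of -0.39, -0.48 and -0.31. These pairwise differences were not tested, and the F tests over the 5 times gave adjusted p of 0.795 for Il4ra and 0.251 for Stat6 (limma).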

How the results depend on the processing

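Over 110 changes of single probe sets and 15 alternative settings, 1471 of 1600 values kept their direction and their side of the threshold, 36 more stayed uncalled but turned in sign (among them the 36 h TCDD change of Il10, 0.18 and down to -0.04), 70 lost a call, 23 gained one and 0 called changes turned direction. The TCDD changes of Il4 are among the 110 and have no threshold. They were counted as kept if their direction held and they moved by less than the spread within groups. The counts of member probe sets called moved more. With the replicate block, fixed or random, the TCDD counts were 1 at 8 h, 2 at 12 h and 2 at 24 h; the block changed no other count of members by over 1.5 times. Over all probe sets it raised the TCDD counts from 636, 1468, 1195, 891 and 1513 to 1240, 2684, 2260, 1776 and 2739, and the interaction count from 1003 to 2516. With only the arrays compared, TCDD gave 0 member calls at 48 h, and vehicle cells gave 3 at 12 h, 4 at 24 h, 3 at 36 h and 3 at 48 h; over all probe sets the TCDD counts were 302, 399, 505 and 265 at 8, 12, 36 and 48 h, with the smaller number of arrays in each fit. Without a filter the 48 h TCDD count and the interaction count were 0, and on the values as deposited the 24 h and 48 h TCDD counts and the interaction count were 0; the cause was not tested. Without the 4 arrays that stood apart, the counts were 2 for TCDD at 12 h, 0 for TCDD at 48 h and 4 for vehicle at 12 h. With 1 leading probe set per gene, vehicle counts were 4 at 24 h and 5 at 36 h, of 7. Leaving out each day in turn gave TCDD counts of 0 to 0 at 8, 12 and 36 h, 1 to 1 at 24 h and 0 to 1 at 48 h, vehicle counts of 4 to 7, 4 to 6, 5 to 7, 7 to 9 and 4 to 5 at the 5 times, and an interaction count of 0 to 0. Vehicle changes of Il4ra and Il2ra on their leading probe sets were called under every alternative. With 4 arrays per group the median standard error was 0.193, and a 95% interval reaches further than 1 such error to either side. Changes above that size can also go uncalled, as Il21r did at 8 h with TCDD (-0.39 ± 0.12, adjusted p = 0.0989, limma).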
